A study of Mus musculus with 20 samples.

Results

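Cardiomyocyte stress genes are the transcripts that heart muscle raises or lowers when wall stretch or workload changes. A set of 10 of them were followed here: the natriuretic peptides Nppa and Nppb, their receptors Npr1 and Npr3, the stretch-responsive repressor Ankrd1, the skeletal actin gene Acta1, the Xin actin-binding genes Xirp1 and Xirp2, the calcineurin inhibitor Rcan1 and the growth factor Hbegf. They were chosen by symbol as natriuretic peptides, receptors and load-responsive genes, with earlier results of these data known. Shares of all genes beside counts of members are therefore given as description only. All 10 were found among the 31874 genes of the table and among the 18219 genes tested. Ischemia-reperfusion (IR) of isolated wild-type hearts lowered 4 of the 10, Xirp2, Hbegf, Rcan1 and Ankrd1, where 1.19% of all tested genes were called lower. In fat-1 hearts 1 of the 10, Xirp2, was called lower, where 0.703% of all genes were. Nppa and Nppb, the best known members, did not pass the test in any comparison.

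As background, the atria store Nppa product (ANP) and release it when stretched, and the ventricles express Nppb (BNP) and, under load, Nppa again. Both peptides act through Npr1, a guanylyl cyclase that makes cGMP, while Npr3 removes them from the circulation. Ankrd1, Acta1, Xirp1, Xirp2, Rcan1 and Hbegf are known to respond in cardiomyocytes to stretch, calcium or growth signals, through factors such as TEAD, SRF, MEF2, NFAT and AP-1.

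Ventricular RNA was sequenced from 20 isolated mouse hearts, 5 in each of 4 groups. All mice were 3 months old, by the methods of the study, and all hearts were perfused by the Langendorff method, in which buffer is driven backward through the aorta into the coronary arteries, so that the heart beats outside the body with no circulating blood. WT-Con and WT-IR hearts came from wild-type C57BL/6J mice, and Fat1-Con and Fat1-IR hearts from fat-1 mice, which carry a transgene for an n-3 fatty acid desaturase of Caenorhabditis elegans that turns n-6 into n-3 fatty acids. In the Con groups the perfusion ran without interruption for 120 min, whereas in the IR groups hearts were perfused for 40 min, kept without flow for 20 min and reperfused for 1 h. Thus the controls too had been removed, cannulated and perfused, and no heart was frozen directly from the animal. A gene said to fall or rise after IR was therefore lower or higher than in continuously perfused hearts. Without hearts from before perfusion, a fall and a smaller rise during perfusion cannot be told apart. Neither the promoter that drives the transgene nor the sex of the mice is stated in the labels or methods. The labels call the samples independent, so p-values measure the spread between hearts.

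Libraries held 15626846 to 25993336 assigned fragments, and each member had between 255 fragments (Npr1, in its lowest library) and 58795 (Xirp1, in its highest). Levels are fragments per kilobase of exon, scaled to a fixed number of assigned fragments per library (FPKM). Differences were tested with limma on log2(FPKM + 0.1), and a gene was called when its Benjamini-Hochberg adjusted p over all tested genes was below 0.05 and its fold change above 1.5. A total of 3 hearts stood apart. WT-Con 5 and Fat1-IR 1 had 15.1% and 13.9% of their fragments on the mitochondrial genome against 28.4% to 39.3% in the others, and Fat1-IR 4 had a summed lymphocyte marker level of 138.6 FPKM against at most 3.41 in the others. Cardiomyocyte markers, all 14 of them detected, summed to 20130 to 42943 FPKM per heart, so the label of heart muscle held throughout. The highest sum was that of WT-Con 5, and the next was 30201 FPKM in Fat1-IR 1. The higher sum in WT-Con 5 did not hold for every marker, since the myosin gene Myh6 was at 2358 FPKM there, the lowest of the WT-Con hearts.

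The promoters of 5 starts are shown. They belong to genes that were each called lower after IR in WT hearts (Ankrd1, Xirp2, Rcan1) or to the neighbouring pair that was not called (Nppb, Nppa). Each line gives the 250 bases before the RefSeq start (GRCm38.p6), 5′ to 3′ on the strand of the gene, with matches to 8 motifs in capitals. The motifs, searched on both strands, were CATTCC (MCAT, bound by TEAD), AGATAA for GATA factors, GGAAAA for the core of an NFAT site, TGANTCA for AP-1, TGACGTCA for the CRE and TATAAA for the TATA box, with the CArG box of SRF and the MEF2 site by name, and no 2 matches of different motifs overlapped in these windows.
Ankrd1: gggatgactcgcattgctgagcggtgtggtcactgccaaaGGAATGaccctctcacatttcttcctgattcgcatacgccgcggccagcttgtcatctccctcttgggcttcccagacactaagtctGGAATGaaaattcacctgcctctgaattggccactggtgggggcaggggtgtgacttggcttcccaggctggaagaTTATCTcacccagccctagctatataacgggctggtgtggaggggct
Xirp2: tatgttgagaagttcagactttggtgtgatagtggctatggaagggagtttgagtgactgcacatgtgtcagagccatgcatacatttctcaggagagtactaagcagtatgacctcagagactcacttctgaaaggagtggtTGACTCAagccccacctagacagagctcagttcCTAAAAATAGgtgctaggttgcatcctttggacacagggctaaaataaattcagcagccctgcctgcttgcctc
Rcan1 internal start: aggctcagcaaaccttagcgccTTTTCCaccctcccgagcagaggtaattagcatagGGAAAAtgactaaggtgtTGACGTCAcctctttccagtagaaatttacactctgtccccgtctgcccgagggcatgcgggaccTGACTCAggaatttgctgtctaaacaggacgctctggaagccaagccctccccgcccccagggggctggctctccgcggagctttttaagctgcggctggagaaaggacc
Nppb: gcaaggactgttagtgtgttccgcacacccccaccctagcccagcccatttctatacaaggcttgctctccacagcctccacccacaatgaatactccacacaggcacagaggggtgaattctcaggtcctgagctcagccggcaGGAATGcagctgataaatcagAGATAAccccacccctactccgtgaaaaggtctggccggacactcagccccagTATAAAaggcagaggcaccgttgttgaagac
Nppa: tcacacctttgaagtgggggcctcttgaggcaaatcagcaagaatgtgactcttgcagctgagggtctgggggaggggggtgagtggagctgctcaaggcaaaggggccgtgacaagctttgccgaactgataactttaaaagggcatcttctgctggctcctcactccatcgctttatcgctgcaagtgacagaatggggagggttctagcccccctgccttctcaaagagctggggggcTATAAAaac
The Ankrd1 window, chr19:36119845-36120094 on the minus strand, held 2 MCAT matches and 1 GATA match. This window lies inside the gene as bounded by GENCODE (36111961 to 36120099), whose outermost start is upstream of the RefSeq start. The Xirp2 window, chr2:67445752-67446001 on the plus strand, held 1 AP-1 and 1 MEF2 match. The Rcan1 window, chr16:92400079-92400328 on the minus strand, lies before the internal start of the gene and held 2 NFAT, 1 AP-1 and 1 CRE match. The upstream start of Rcan1 held none of the 8, and because FPKM is given per gene the starts cannot be told apart in these data. The Nppb window, chr4:147985650-147985899 on the plus strand, held 1 MCAT, 1 GATA and 1 TATA match, and the Nppa window, chr4:148000472-148000721 on the plus strand, held 1 TATA match. The Nppb matches also lie after the GENCODE start of that gene (147985788). Of the other members with an entry, Acta1 had 1 CArG, 1 MCAT and 1 TATA match and Npr1 and Npr3 had none of the motifs. Xirp1 and Hbegf are only named here. Among all 32851 windows of the same length, 12.6% held MCAT, 9.99% GATA, 20.4% NFAT, 6.75% AP-1, 1.55% CRE, 12.4% TATA, 1.47% CArG and 2.92% MEF2, so a match is a description of the letters and not of a bound site.

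The members spanned a wide range of levels per kilobase. Ankrd1 was the most abundant, with 270.5 to 990.3 FPKM over the 20 hearts, followed by Nppb with 139.2 to 533.0 FPKM. Hbegf lay at 6.42 to 43.9 FPKM, and the receptors Npr1 and Npr3 were lowest at 2.84 to 4.94 and 1.49 to 3.20 FPKM.

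**Figure D1:**
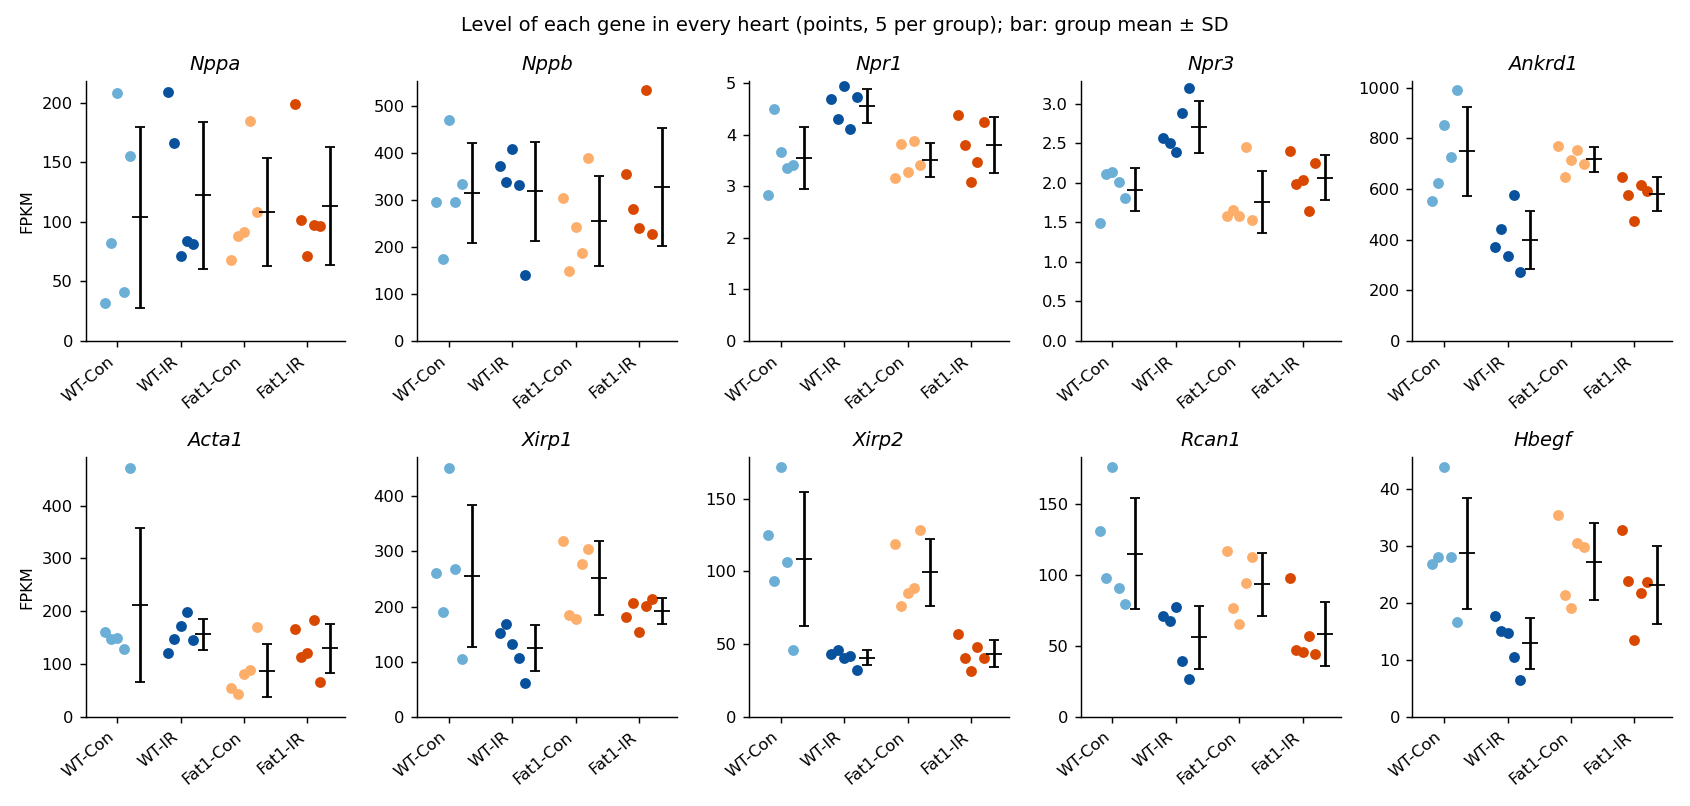
FPKM (vertical axis, linear, from 0) of the 10 genes in each of the 20 hearts, with 1 point per heart, the 4 groups on the horizontal axis and the group mean ± SD as a bar beside the points. Xirp2 lies at 32.4 to 45.6 FPKM in WT-IR hearts, below every WT-Con heart, whereas the Nppa and Nppb groups overlap widely.

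Nppa was not called after IR in either genotype. Its gene lies on chromosome 4 (148000722 to 148002079, mm10, plus strand). In WT-Con hearts 1 to 5 its level was 31.8, 82.6, 208.2, 41.0 and 155.3 FPKM, and in WT-IR hearts it was 209.0, 166.2, 71.0, 83.9 and 81.7 FPKM. In Fat1-Con hearts it was 67.8, 87.8, 91.2, 185.0 and 108.0 FPKM, and in Fat1-IR hearts 199.1, 101.8, 71.1, 97.0 and 96.6 FPKM. All 4 groups overlapped, and the largest spread was in WT-Con, where the mean was 103.7 ± 76.0 FPKM (SD, n = 5). The fitted log2 difference was 0.46 in WT hearts (95% interval -0.49 to 1.40) and 0.06 in fat-1 hearts (-0.88 to 1.01), so both intervals include changes of either sign.

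Nppa is mainly an atrial gene in the adult mouse, and the samples are labelled as ventricular. The atrial light chain gene Myl7 nonetheless ranged from 10.1 to 326.6 FPKM over the hearts, Myl4 from 2.26 to 77.0, sarcolipin (Sln) from 1.39 to 29.3 and Mybphl from 0.582 to 13.8 FPKM, while the atrial hormone gene Bmp10 was at 0 in 4 hearts and reached 10.4 FPKM in WT-Con 3. Other markers of the list varied less, with the potassium channel gene Kcnj3 at 11.9 to 19.4 FPKM and the transcription factor gene Tbx5 at 2.56 to 5.17 FPKM. All 10 atrial markers, Nppa among them, were in the table and none was called in any pairwise comparison. The 9 markers other than Nppa summed to 33.9 to 236.6 FPKM in WT-Con, 54.1 to 259.8 in WT-IR, 82.7 to 177.9 in Fat1-Con and 95.6 to 494.9 in Fat1-IR.

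Nppa rose and fell with these markers from heart to heart. Over the 20 hearts its log2 level followed their mean log2 level with Pearson r = 0.926 and Spearman rho = 0.901 (permutation p = 1e-05 for each, the smallest 100000 resamples can give, and 2e-05 after Benjamini-Hochberg adjustment over the 4 tests of Nppa and Nppb). On deviations from the group means r was 0.938, without the 2 hearts farthest from the median it was 0.929, and it was 0.963 once the 3 hearts that stood apart were left out. With the atrial mean as a covariate, an alternative chosen after the data had been seen, the Nppa difference was 0.13 in WT hearts and -0.22 in fat-1 hearts and was again not called. By the mean absolute difference of z-scores over the 20 hearts, the 3 genes most like Nppa among those with a mean of at least 1 FPKM were Sln (0.28), Myl7 (0.323) and Mybphl (0.347), each an atrial marker, where the median over all these genes was 1.04. The part of atrial tissue in the Nppa levels was not tested in any other way.

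Nppb was not called either. The gene ends 13516 bases before Nppa starts (chromosome 4, 147985788 to 147987205, plus strand). Its level in WT-Con hearts was 295.8, 174.3, 470.4, 295.1 and 334.4 FPKM, and in WT-IR hearts it was 372.4, 338.0, 407.8, 331.3 and 139.2 FPKM. Fat1-Con hearts had 303.4, 148.0, 241.9, 187.2 and 389.7 FPKM, and Fat1-IR hearts 354.6, 280.5, 240.1, 533.0 and 226.3 FPKM. The groups overlapped, with the single low WT-IR heart below all WT-Con hearts and the highest value of all in Fat1-IR 4. The log2 difference was -0.00 in WT hearts (95% interval -0.68 to 0.67) and 0.37 in fat-1 hearts (-0.30 to 1.05), neither called. Over the hearts Nppb showed little relation to the atrial markers, with r = 0.194 and rho = 0.271 (permutation p = 0.413 and 0.246, adjusted 0.413 and 0.328), and r = 0.188 without the 2 hearts farthest from the median. The genes most like Nppb were Wdr1 (0.427), Srf (0.487) and Agt (0.504), the last being angiotensinogen and the middle one the factor that binds the CArG box.

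**Figure D2:**
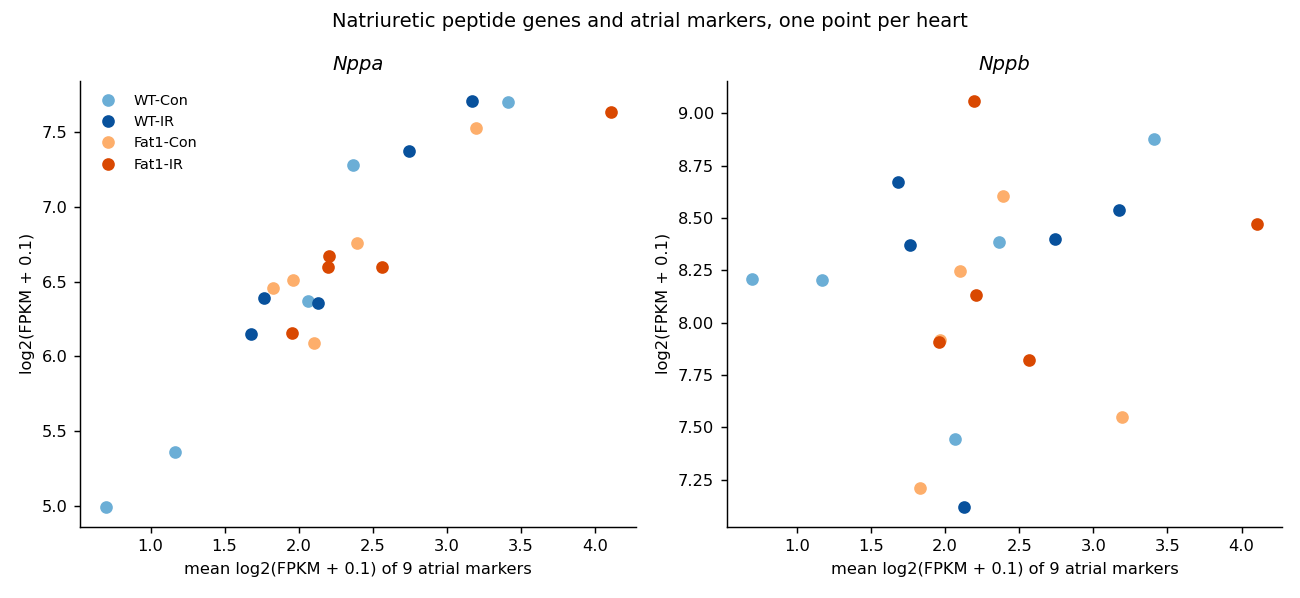
log2(FPKM + 0.1) of Nppa (left) and Nppb (right) against the mean log2(FPKM + 0.1) of 9 atrial markers other than Nppa, with 1 point per heart coloured by group. Nppa follows the markers (r = 0.926), and the points for Nppb scatter (r = 0.194).

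Neither receptor was called. Npr3, the clearance receptor, had 1.49, 2.11, 2.14, 2.02 and 1.81 FPKM in WT-Con hearts and 2.57, 2.51, 2.39, 2.88 and 3.20 FPKM in WT-IR hearts, so that the groups did not overlap, as held in the higher direction for 3.36% of all tested genes. Its log2 difference was 0.48 with a standard error of 0.14 and an adjusted p of 0.0688 in limma, short of the threshold. In fat-1 hearts the levels were 1.58, 1.66, 1.58, 2.45 and 1.54 FPKM without and 2.40, 1.99, 2.04, 1.64 and 2.26 FPKM with IR, which overlapped, and the difference was 0.23 (adjusted p = 0.545). Averaged over the genotypes, Npr3 was higher after IR by 0.36 on the log2 scale (adjusted p = 0.0362), a 1.28-fold difference and so below the fold threshold. Scaling to the nuclear genes alone gave 0.61 in WT hearts (adjusted p = 0.0213), which would be a call.

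Npr1, the signalling receptor, had 2.84, 4.49, 3.67, 3.35 and 3.41 FPKM in WT-Con and 4.69, 4.31, 4.94, 4.12 and 4.74 FPKM in WT-IR hearts. All but 1 of the WT-IR hearts lay at or above 4.31 FPKM and 1 WT-Con heart reached into their range. The difference was 0.36 (adjusted p = 0.12), and in fat-1 hearts, with 3.16 to 3.87 FPKM without and 3.08 to 4.38 FPKM with IR, it was 0.10 (adjusted p = 0.775). Npr3 and Npr1 are expressed by endocardial and vascular cells among others. All 10 endothelial markers were in the table and 2 were called higher in WT-IR hearts, as were 367 of all 18219 tested genes. The 10 markers summed to 185.5 to 270.0 FPKM in WT-Con and 262.8 to 322.0 FPKM in WT-IR, and to 191.1 to 218.9 in Fat1-Con and 218.8 to 334.6 in Fat1-IR. The 5 endocardial markers other than Npr3, of which none was called and none was at 0, summed to 9.82 to 19.7 FPKM in WT-Con, 15.6 to 21.4 in WT-IR, 9.86 to 16.2 in Fat1-Con and 13.002 to 21.9 in Fat1-IR. Their part in the receptor levels was not tested. In these bulk samples fewer cells of a type and less RNA per cell cannot be told apart.

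Of the natriuretic peptide genes as a list, 16 of 18 were tested, and Pcsk6 alone was called in a pairwise comparison. This call was in the higher direction in WT hearts, as for 367 of all 18219 tested genes. Pcsk6 encodes the protease that activates corin, the enzyme that in turn cleaves the ANP precursor. It had 7.98 to 10.1 FPKM in WT-Con and 13.3 to 15.7 FPKM in WT-IR hearts and rose by 0.67 on the log2 scale (adjusted p = 0.00061). In fat-1 hearts it had 9.64 to 11.2 FPKM without and 8.97 to 12.2 FPKM with IR. Corin itself had group means of 34.1 FPKM in WT-Con, 31.2 in WT-IR, 38.3 in Fat1-Con and 32.8 in Fat1-IR and was not called. The third receptor gene, Npr2, had means of 7.80, 9.50, 9.002 and 9.65 FPKM in the same order, and neprilysin (Mme), which degrades the peptides, had 1.15, 1.09, 1.23 and 1.14 FPKM. The C-type peptide gene Nppc stayed below 0.925 FPKM in every heart. The median log2 difference of the list was 0.19 in WT and 0.08 in fat-1 hearts, against 0.04 and 0.08 over all genes tested.

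Ankrd1 fell after IR in WT hearts. This gene (chromosome 19, 36111961 to 36120099, minus strand) encodes an ankyrin repeat protein that sits on the titin spring of the sarcomere and enters the nucleus under stretch. WT-Con hearts had 554, 623, 852, 726 and 990 FPKM and WT-IR hearts 372, 440, 334, 575 and 271 FPKM. The groups met only where the highest WT-IR heart lay above the lowest WT-Con heart. The log2 difference was -0.93 with a standard error of 0.18 (limma, adjusted p = 0.00538), 0.526 times the WT-Con level. In fat-1 hearts the levels were 772, 646, 716, 752 and 698 FPKM without IR and 647, 575, 472, 617 and 590 FPKM with it. Here too the groups met only where the highest Fat1-IR heart (647.5 FPKM) lay above the lowest Fat1-Con heart (646.3 FPKM). The difference was -0.31 (limma, adjusted p = 0.516) with the interval from -0.69 to 0.07, and was not called. An exact permutation test over hearts, without adjustment, gave p = 0.0159 in each genotype. With each pair of groups fitted alone the difference in WT hearts did not pass (adjusted p = 0.0966). Over the other alternatives, including each heart left out, it stayed between -1.07 and -0.80 and passed, except where a fold of 2 was required.

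Of the titin spring partners 16 of 17 were tested and Ankrd1 was the only call, where 1.19% of all genes were called lower in WT hearts. Its paralogs are the skeletal muscle gene Ankrd2 and Ankrd23. Ankrd2 was nearly absent, with group means of 1.23 FPKM in WT-Con, 0.528 in WT-IR, 0.666 in Fat1-Con and 1.01 in Fat1-IR, and its WT difference of -1.14 had an adjusted p of 0.0773. Ankrd23 had means of 8.09, 8.21, 7.91 and 8.35 FPKM in the same order. The muscle LIM gene Csrp3 had -0.51 in WT hearts (adjusted p = 0.156) and the autophagy adaptor Sqstm1 -0.46 (adjusted p = 0.0877). The genes most like Ankrd1 over the hearts were Naca (0.328), Hdac11 (0.389) and the alpha-actinin gene Actn2 (0.392), where the median over all genes was 1.02. Ankrd1 is also a target of YAP and TEAD, and of that list 21 of 22 genes were tested. In WT hearts 3 of the 21 were called lower and none higher, against 1.19% of all genes called lower. Beside Ankrd1, Nuak2, a kinase gene, fell by 0.83 (adjusted p = 0.00508) and Fjx1 by 0.96 (adjusted p = 0.029). The fat-1 comparison called 1 of the 21, Igfbp3, which rose by 0.69 (adjusted p = 0.0416), and called 236 of all 18219 tested genes higher. The matricellular genes Ccn2 and Ccn1 had log2 differences of 0.77 and 0.61 in fat-1 hearts (adjusted p = 0.205 and 0.285). The median of the list was 0.07 in WT and -0.06 in fat-1 hearts.

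Xirp2 was the only member called lower after IR in both genotypes. It encodes a large actin-binding repeat protein of the Z-disc and the intercalated disc, the junction that joins cardiomyocytes end to end, and lies on chromosome 2 (67446002 to 67526614, plus strand). WT-Con hearts had 125, 93.6, 171.9, 106.4 and 45.7 FPKM and WT-IR hearts 43.4, 45.6, 40.4, 41.4 and 32.4 FPKM. The groups did not overlap, although WT-Con 5 lay close to the highest WT-IR heart. The fall was -1.30 with a standard error of 0.25 (limma, adjusted p = 0.00498). Fat1-Con hearts had 118.8, 76.0, 84.9, 88.4 and 128.2 FPKM and Fat1-IR hearts 56.6, 40.4, 31.7, 47.9 and 40.3 FPKM, again with no overlap. Groups were apart in the lower direction for 1.39% of all genes in WT and 2.46% in fat-1 hearts. There the fall was -1.19 (adjusted p = 0.0127).

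Averaged over the genotypes Xirp2 was lower by 1.24 on the log2 scale, with an adjusted p of 0.00012. This value stayed between -1.48 and -1.15 over the alternatives, and the fall passed in fat-1 hearts in all of them. In WT hearts it did not pass where the pair of groups was fitted alone (adjusted p = 0.0725). With the 3 hearts that stood apart left out the WT difference was -1.58.

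Xirp1, which encodes the related Xin protein (chromosome 9, 120013755 to 120023598, minus strand), had 260.9, 189.9, 452.6, 268.1 and 104.1 FPKM in WT-Con and 151.6, 168.4, 131.3, 107.1 and 61.2 FPKM in WT-IR hearts. Apart from the low WT-Con 5, every WT-Con heart lay above every WT-IR heart. The difference of -0.97 had an adjusted p of 0.102 and was not called. Without WT-Con 5 it was -1.25 with an adjusted p of 0.00914, a call. In fat-1 hearts Xirp1 had 319.1, 183.8, 177.6, 277.8 and 303.8 FPKM without and 180.9, 205.5, 154.5, 201.6 and 214.2 FPKM with IR, a difference of -0.36 (adjusted p = 0.672).

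A few other genes of the list of intercalated disc genes and Xin partners were called lower beside Xirp2. All 19 genes of this list were tested. The WT comparison called Nrap, Flnc and Lmod2 lower with Xirp2 and none higher, 4 of 19 in all, against 1.19% of all genes called lower. The fat-1 comparison called 2 of 19 lower, Xirp2 and Nrap, and none higher, against 0.703% of all genes called lower. Nrap, an anchoring protein of thin filaments at the disc, had 90.5 to 246.5 FPKM in WT-Con and 59.8 to 92.4 in WT-IR hearts (log2 difference -1.02, adjusted p = 0.00356), and 153.7 to 197.9 against 76.2 to 99.3 FPKM in fat-1 hearts (-0.90, adjusted p = 0.0117). Flnc, which encodes the actin cross-linker filamin C, a partner of Xin, had 75.5 to 279.1 FPKM in WT-Con and 35.7 to 82.0 in WT-IR hearts (-1.34, adjusted p = 0.00886). In fat-1 hearts Flnc had 129.3 to 220.4 FPKM without and 64.2 to 106.2 FPKM with IR, a difference of -0.94 (adjusted p = 0.0998) that was not called. Lmod2, which elongates thin filaments, had 636.9 to 1009 FPKM in WT-Con and 351.5 to 646.1 in WT-IR hearts (-0.84, adjusted p = 0.00969). In fat-1 hearts Lmod2 had a difference of -0.61 (adjusted p = 0.092) and was not called. The desmosome gene Pkp2 was lower by 0.47 and 0.49 in the WT and fat-1 comparisons (adjusted p = 0.00416 and 0.00388), below the fold threshold, and the connexin gene Gja1 was lower by 0.45 in the fat-1 comparison (adjusted p = 0.0468), also below it. The median log2 difference of the list was -0.17 in WT and -0.21 in fat-1 hearts, against 0.04 and 0.08 over all genes tested. The genes most like Xirp2 over the 20 hearts were Nrap (0.198), Rnf115 (0.253) and Flnc (0.255), with a median of 1.16 over all genes. This measure keeps the differences between groups, so the likeness of Nrap and Flnc is not separate from their calls.

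**Figure D3:**
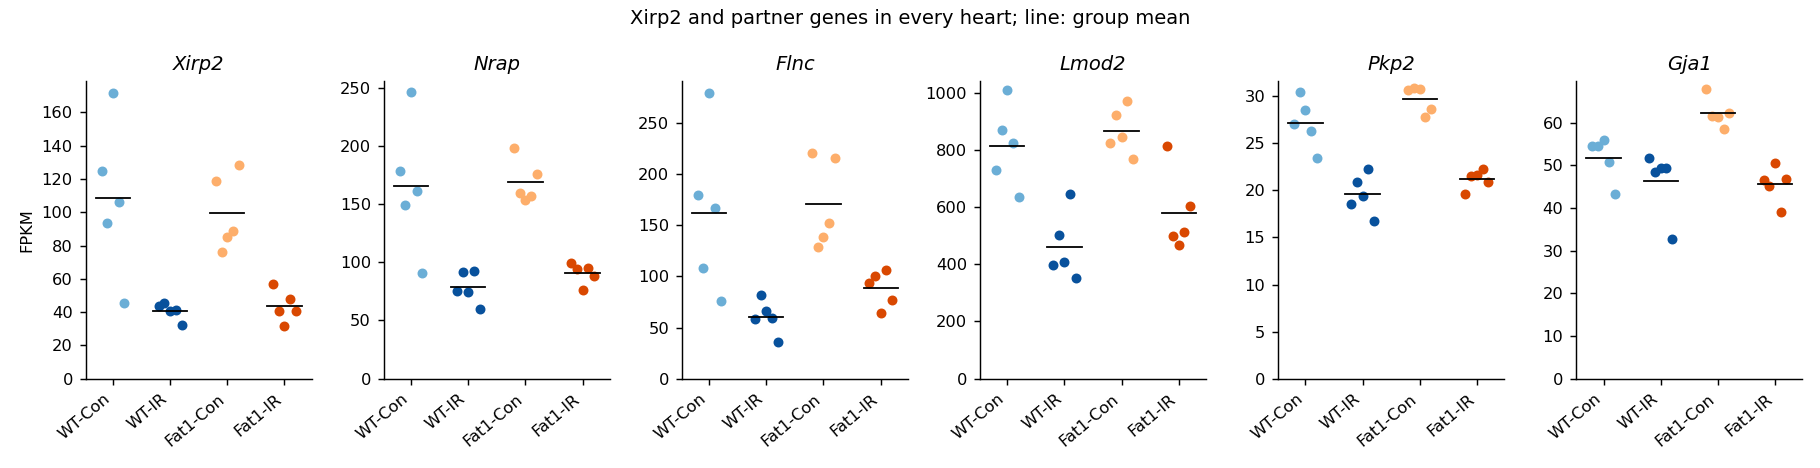
FPKM (vertical axes, linear, from 0) of Xirp2 and 5 genes of the intercalated disc list in each heart, with 1 point per heart, the 4 groups on the horizontal axis and a line at the group mean. Nrap lies at 59.8 to 92.4 FPKM in WT-IR and at 76.2 to 99.3 FPKM in Fat1-IR hearts, and the Pkp2 groups with and without IR do not overlap in either genotype.

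Acta1, the skeletal actin gene that belongs to the fetal program (chromosome 8, 123891769 to 123894751, minus strand), had 161.1, 146.7, 149.3, 127.7 and 471.0 FPKM in WT-Con and 120.0, 147.3, 171.6, 197.5 and 144.7 FPKM in WT-IR hearts. The groups overlapped, and WT-Con 5 stood far above all others. The log2 difference was -0.26 (95% interval -1.02 to 0.50). Fat1-Con hearts had 54.2, 42.7, 80.7, 88.3 and 169.8 FPKM and Fat1-IR hearts 166.4, 112.7, 121.0, 182.9 and 65.0 FPKM, a difference of 0.65 (adjusted p = 0.487). With the 3 hearts that stood apart left out these differences were 0.08 and 0.31, so the sign of the WT value, which was not called, turned on the hearts kept.

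Of the fetal and hypertrophic program 18 of 19 genes were tested and the desmin gene Des was the only call. In WT hearts, where Des was called lower, 1.19% of all genes were. Des fell by 0.63 in WT hearts (adjusted p = 0.0376), from 398.9 to 825.7 FPKM in WT-Con to 280.3 to 357.3 FPKM in WT-IR hearts, with WT-Con 5 highest. The fetal myosin gene Myh7 had group means of 15.7 FPKM in WT-Con, 21.3 in WT-IR, 18.3 in Fat1-Con and 20.3 in Fat1-IR, and the adult myosin gene Myh6 had 2642, 2226, 2768 and 2747 FPKM in the same order. Neither was called. The median of the list was -0.06 in WT and 0.32 in fat-1 hearts, against 0.04 and 0.08 over all genes tested. The list holds Nppa and the atrial markers Myl4 and Myl7, and the part of atrial tissue in its median was not tested.

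Rcan1 fell after IR in WT hearts. It encodes an inhibitor of the phosphatase calcineurin, which activates NFAT factors, and the gene itself responds to NFAT from its internal start (chromosome 16, 92391953 to 92470867, minus strand). WT-Con hearts had 131.0, 98.0, 175.8, 90.4 and 79.5 FPKM and WT-IR hearts 71.0, 67.3, 77.1, 39.0 and 26.2 FPKM, with no overlap. The log2 difference was -1.08 with a standard error of 0.29 (limma, adjusted p = 0.0433), close to the threshold. In fat-1 hearts the levels were 116.7, 76.8, 65.6, 94.4 and 112.3 FPKM without and 97.5, 46.8, 45.8, 57.0 and 44.3 FPKM with IR. There the IR hearts lay lowest except for Fat1-IR 1, and the difference was -0.71 (adjusted p = 0.293). Averaged over the genotypes Rcan1 fell by 0.90 (adjusted p = 0.00969).

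The WT call for Rcan1 was lost in 19 of 36 alternatives, where the adjusted p ran up to 0.165, while the difference stayed between -1.23 and -0.84. It was lost when WT-Con 1, 2, 3 or 4, WT-IR 2, 4 or 5, Fat1-Con 2, 4 or 5, or Fat1-IR 2, 3, 4 or 5 was left out, and the smallest fall was found without WT-IR 5 (-0.84, adjusted p = 0.134). With array weights the fat-1 difference became -0.92 with an adjusted p of 0.033, a call. Of the 14 calcineurin and NFAT genes, all tested, Akap5, which encodes an anchor of calcineurin, was called higher in WT-IR hearts at 0.297 to 0.704 FPKM against 0.0795 to 0.132 FPKM in WT-Con (log2 difference 1.42, adjusted p = 0.00206), a low level. The paralog Rcan2 had group means of 108.5 FPKM in WT-Con, 88.0 in WT-IR, 98.4 in Fat1-Con and 101.7 in Fat1-IR and was not called. No gene of the list other than Rcan1 and Akap5 passed, so in WT hearts 1 of 14 was called higher and 1 lower. Over all 18219 tested genes, 367 were called higher and 216 lower there. The median of the list was -0.09 in WT and 0.01 in fat-1 hearts. The genes most like Rcan1 were Asns (0.351), Abra (0.36) and Cars (0.362), of which Abra encodes an actin-binding activator of SRF and Asns and Cars enzymes that use amino acids.

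Hbegf fell after IR in WT hearts and was not called in fat-1 hearts. It encodes a membrane-anchored EGF family ligand that metalloproteases release (chromosome 18, 36504927 to 36515805, minus strand). WT-Con hearts had 26.8, 28.1, 43.9, 28.1 and 16.7 FPKM and WT-IR hearts 17.8, 15.1, 14.8, 10.5 and 6.42 FPKM. Only WT-IR 1 lay above the lowest WT-Con heart, which was WT-Con 5. The log2 difference was -1.16 with a standard error of 0.28 (limma, adjusted p = 0.022). The call was lost without WT-Con 3 (adjusted p = 0.0608), without WT-IR 4 (0.0523) and without WT-IR 5 (0.0716), and with the pair of groups fitted alone (0.109). Fat1-Con hearts had 35.5, 21.4, 19.2, 30.6 and 29.8 FPKM and Fat1-IR hearts 32.9, 23.8, 13.5, 21.8 and 23.8 FPKM, which overlapped widely, with a difference of -0.25 (95% interval -0.84 to 0.33). Averaged over the genotypes Hbegf fell by 0.71 (adjusted p = 0.0331), a call that was lost in 14 of 35 alternatives.

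Of the other EGF family genes, with 15 of 18 of the list tested, none was called. The receptor genes were low, at group means of 1.41 FPKM in WT-Con, 1.12 in WT-IR, 1.31 in Fat1-Con and 1.10 in Fat1-IR for Egfr and of 0.854, 0.826, 1.04 and 0.907 FPKM for Erbb4. The median of the list was 0.01 in each genotype. The genes most like Hbegf over the hearts were Otud1 (0.23), Enah (0.24) and Itga5 (0.252), with a median of 1.08 over all genes. Enah encodes an actin regulator and Itga5 the fibronectin receptor subunit.

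Counted together, 4 of the 10 members were called lower after IR in WT hearts and none higher, where 1.19% of all genes were called lower. In fat-1 hearts 1 of 10 was called lower and none higher, where 0.703% of all genes were called lower. Averaged over the genotypes 4 of 10 were lower, the same 4 as in WT hearts, against 1.48% of all genes. The groups did not overlap, in the lower direction, for Xirp2 and Rcan1 in WT hearts, as held for 1.39% of all genes. In fat-1 hearts this was so for Xirp2, as for 2.46% of all genes. The median log2 difference of the members was -0.59 in WT and -0.10 in fat-1 hearts, against 0.04 and 0.08 over all genes.

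The marker lists of fibroblasts, macrophages and endothelial cells had median differences above 0 after IR in both genotypes. Over all 18219 tested genes, 367 were called higher after IR in WT hearts and 236 in fat-1 hearts. All 8 fibroblast markers were in the table and 1 was called higher in WT-IR, with sums of 385.3 to 614.4 FPKM in WT-Con and 536.3 to 686.3 FPKM in WT-IR hearts. All 8 macrophage markers were in the table and 2 were called higher, with sums of 73.6 to 182.6 and 109.9 to 128.5 FPKM. Of the 14 cardiomyocyte markers none was called, and their median log2 difference was -0.21 in WT and 0.08 in fat-1 hearts. Fibroblast markers summed to 394.7 to 453.1 FPKM in Fat1-Con and 441.9 to 686.7 FPKM in Fat1-IR hearts, and macrophage markers to 64.8 to 84.4 and 77.8 to 124.8 FPKM. The median log2 difference was 0.56 in WT and 0.41 in fat-1 hearts for the fibroblast list, 0.31 and 0.26 for the macrophage list and 0.45 and 0.34 for the endothelial list. In fat-1 hearts no fibroblast, macrophage or endothelial marker was called, and 1 adipocyte marker was called higher, with sums over the 6 adipocyte markers of 0.901 to 3.70 FPKM in Fat1-Con and 3.46 to 98.4 FPKM in Fat1-IR hearts. The part of cell makeup in the falls was not tested. When the 3 hearts that stood apart were left out, 5 members were called lower in WT hearts, Xirp1 joining the 4, and 1 in fat-1 hearts. Calls over all genes rose as well in that fit, to 357 lower of 17882 tested in WT hearts, from 216 of 18219, and to 242 in fat-1 hearts, from 128.

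**Figure D4:**
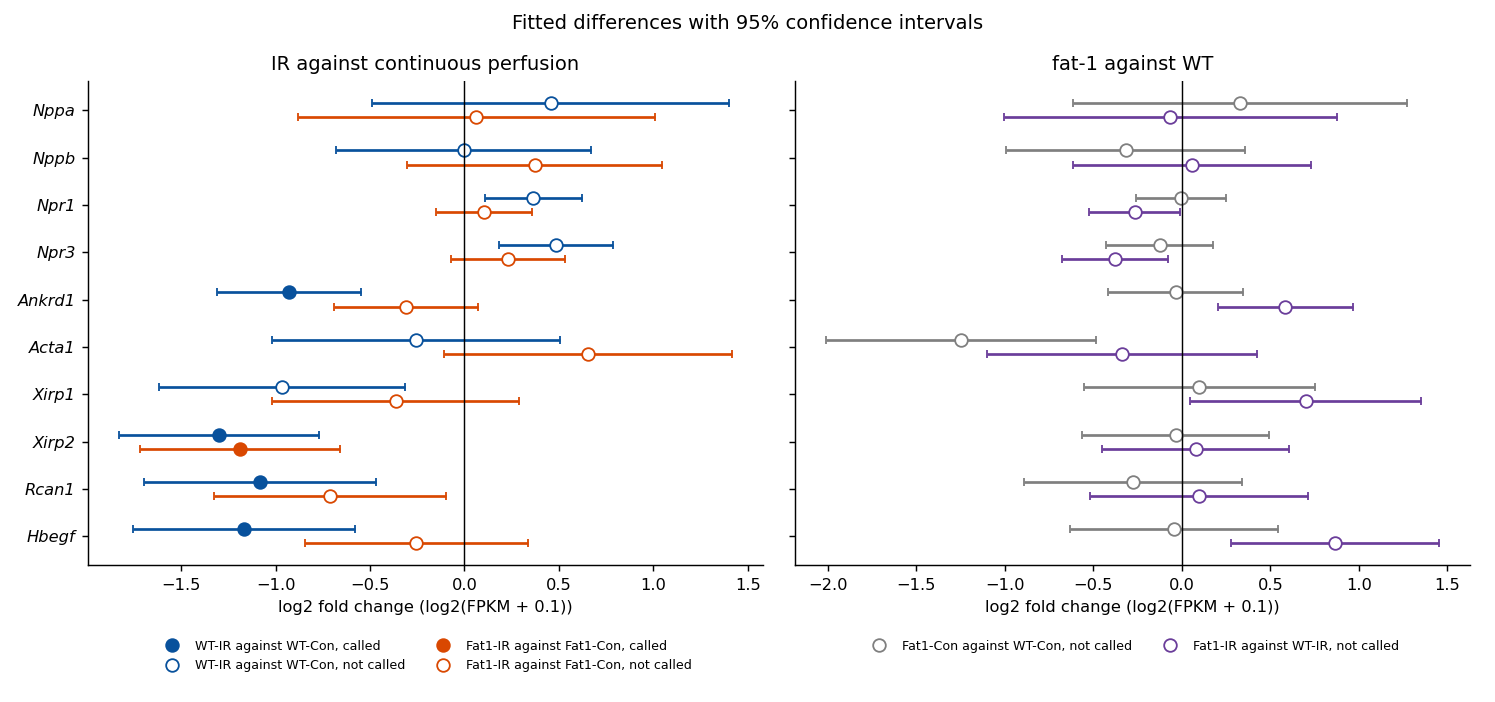
Fitted log2 fold change on the log2(FPKM + 0.1) scale (horizontal axis) of each gene (vertical axis), with 95% confidence intervals, for IR against continuous perfusion in both genotypes (left) and for fat-1 against WT under both protocols (right). Filled points were called and open points were not. Xirp2 is the only gene called in both genotypes, at -1.30 and -1.19, and no point on the right is filled.

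None of the 10 members was called for genotype alone. In continuously perfused hearts 0 were called, as were 0.0274% of all genes, and 0 had groups that did not overlap, against 1.33% of all genes. The largest difference was in Acta1, which was lower in Fat1-Con than in WT-Con by 1.25 on the log2 scale (standard error 0.37). Its adjusted p was 0.757 in limma, its unadjusted p 0.0028 and the exact two-sided permutation p 0.0397, where 0.00794 is the smallest that the 252 splits of 5 against 5 hearts allow. WT-Con hearts lay at 127.7 FPKM or above and 4 of 5 Fat1-Con hearts at 88.3 FPKM or below. The difference stayed negative in all 36 alternatives, at -1.53 to -0.91, and was called in none. The other 9 members differed by at most 0.33 in size, and 1 of 10 had an unadjusted p under 0.05 against 5.63% of all genes.

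After IR, fat-1 and WT hearts again differed in 0 members past the threshold, with 0.104% of all genes called in either direction and 0 members, against 1.59% of all genes, whose groups did not overlap. Of the 10 members 5 had an unadjusted p under 0.05, against 6.81% of all genes. Ankrd1 was higher in Fat1-IR than in WT-IR hearts by 0.58 (95% interval 0.20 to 0.96, adjusted p = 0.379), Hbegf by 0.87 (0.28 to 1.45, adjusted p = 0.411) and Xirp1 by 0.70 (0.05 to 1.35, adjusted p = 0.687). Npr3 was lower by 0.38 (adjusted p = 0.542) and Npr1 by 0.27 (adjusted p = 0.701). By level, Ankrd1 had 398.3 ± 116.2 FPKM in WT-IR and 580.5 ± 66.4 FPKM in Fat1-IR hearts (SD, n = 5), and Hbegf had 12.9 ± 4.47 and 23.2 ± 6.90 FPKM. Xirp2, in contrast, had 40.6 ± 5.02 and 43.4 ± 9.36 FPKM, a difference of 0.08 with an interval of -0.45 to 0.61.

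Whether the response to IR itself differed between genotypes was tested by the interaction. None of the 10 members was called, as were 0.00549% of all genes, and at an unadjusted p under 0.05 there were 2 members, against 5.31% of all genes. These were Ankrd1, whose fall was smaller in fat-1 hearts by 0.62 (standard error 0.26, unadjusted p = 0.0269 and adjusted p = 0.831 in limma), and Hbegf, whose fall was smaller by 0.91 (standard error 0.40, unadjusted p = 0.0334 and adjusted p = 0.831). The calls of Ankrd1, Rcan1 and Hbegf in WT but not in fat-1 hearts are therefore not shown to differ between the genotypes. For Xirp2 the difference in response was 0.11 (95% interval -0.64 to 0.86).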

How the data were processed

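RNA from the ventricles of 20 perfused hearts was sequenced by the authors, mapped to mm10 with HISAT2 and counted with featureCounts, as the submitters' processing notes name them, with versions not given there. The authors deposited FPKM values, 1 column per heart, and no column was pooled. Dividing out GENCODE M21 exon lengths gave whole fragments (within 0.02, for values under 1000 fragments) in every library for 30746 of 31217 genes (98.5%), and 657 gene IDs were not found in that annotation. FPKM is relative to all assigned fragments, mitochondrial ones included, so a shift in that share moves every other gene.

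Genes were kept when they averaged 0.1 FPKM or more (18219, with 13655 below) and log2(FPKM + 0.1) was fitted with limma 3.58.1 (R 4.3.3), with 4 group means, 16 residual degrees of freedom, a variance trend and Benjamini-Hochberg adjustment over all tested genes. Fold changes are on this log2(value + pseudocount) scale, which understates changes of low genes. The fit was tested on simulated data. Exact permutation tests over hearts were two-sided and 40 were computed, without adjustment. The smallest possible exact p, 0.00794, was reached by Npr3, Xirp2 and Rcan1 in WT hearts and by Xirp2 in fat-1 hearts. For Fat1-IR against WT-IR the exact p was 0.0159 for Ankrd1, Xirp1 and Npr3, 0.0317 for Hbegf and 0.0397 for Npr1. Hearts were grouped by their titles. The 10 members, the gene lists and the tests were chosen with earlier results of these data known. All members were named, with at most 4 other genes per list and comparison (smallest p) and a few paralogs and partners, and the 3 genes with the smallest mean absolute z-score difference. The z-scores were taken over all hearts, with differences between groups left in. Alternatives covered the pseudocount, filter, scaling, fit, fold threshold and each heart left out. Use of atrial markers as a covariate was added after seeing the data. Promoters came from RefSeq (GRCm38.p6), and 8 of 10 members had an entry.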

Additional observations from a re-analysis of the deposited data

Results flagged for a closer look

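Within groups of 5 hearts, a value stood apart when its gap to the nearest heart exceeded 0.71 of the range of the group, and 5 of 40 combinations of member and group did so. This cut-off is meant to be passed by about 1 in 20 groups of independent, normally distributed values. Here it was applied to FPKM without logs, and the combinations share the same hearts, so the count is a description only. Nppa was 199.1 FPKM in Fat1-IR 1, against 101.8 in the next heart. Nppb was 139.2 FPKM in WT-IR 5, against 331.3 in the next. Npr3 was 2.449 FPKM in Fat1-Con 4, against 1.657 in the next. Acta1 was 471 FPKM in WT-Con 5, against 161.1 in the next. Rcan1 was 97.54 FPKM in Fat1-IR 1, against 57.02 in the next. WT-Con 5 and Fat1-IR 1 are the hearts with a low mitochondrial share, and the part of that share in these values was not tested.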

How the results depend on the processing

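Over 36 alternative settings, 2085 of 2140 member values kept their direction, where called, and their side of the threshold, 45 lost a call, 10 gained one and none reversed, while 65 values that were not called changed sign. With each pair of groups fitted alone, 0 members were called lower in WT hearts in place of 4. With hearts left out in turn this count ran from 2 (without WT-Con 3, WT-IR 4 or WT-IR 5) to 5 (without WT-Con 5). In fat-1 hearts array weights gave 2 members in place of 1. Averaged over the genotypes, a fold threshold of 2 left 1 member in place of 4, and leaving out hearts gave 2 (without WT-IR 5 or Fat1-IR 3) to 4. The averaged Ankrd1 value fell below the fold threshold without WT-Con 5 (-0.56), WT-IR 5 (-0.55) or Fat1-IR 3 (-0.58). The cause of these shifts was not tested.

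Calls over all genes in WT hearts, 367 higher and 216 lower, ranged from 138 and 66 with pairs fitted alone to 642 higher with array weights and 357 lower without the 3 hearts that stood apart. In fat-1 hearts, 236 higher and 128 lower ranged from 148 and 68 to 428 and 317, and in the average 521 and 270 ranged from 178 and 102 to 829 and 477. Fat1-IR against WT-IR gave 5 to 25 higher and 2 to 32 lower in place of 11 and 8, and Fat1-Con against WT-Con 4 to 8 higher and 1 to 2 lower in place of 4 and 1. Scaling to nuclear genes moved the median of all genes in WT hearts from 0.04 to 0.15 and the split to 593 higher and 162 lower, TPM scaling gave 215 and 203 and median-of-ratios scaling 327 and 255. In fat-1 hearts TPM scaling moved the median from 0.08 to 0.13, with 211 higher and 87 lower, while median-of-ratios scaling gave 208 and 177 and scaling to nuclear genes 200 and 148.

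The hearts of a group share replicate numbers with other groups, but same-numbered hearts did not deviate together (none of 30 pairs had a correlation over 0.1, and 1 of 20 hearts matched its own number best). With the replicate number as a block, 4 members were called lower in WT hearts, 1 in fat-1 hearts and 4 in the average, as without it. Each member had 255 or more fragments in each heart, the fewest in Npr1.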
